A study of Arabidopsis thaliana with 48 samples.

Results

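SDI1 (SULFUR DEFICIENCY INDUCED 1, AT5G48850) and SDI2 (SULFUR DEFICIENCY INDUCED 2, AT1G04770) encode a pair of related Arabidopsis proteins that hold back glucosinolate synthesis. They were picked by locus identifier, with earlier results of these data known, and are 2 of the 33602 targets in the deposited abundance table. Both passed the filter on low counts in each of the 6 fits. Their transcripts were followed through 48 RNA-seq libraries, 3 for each of 16 groups: shoots and roots of 4 genotypes grown at 2 sulfate levels.

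The genotypes were the wild-type accession Col-0, the T-DNA insertion line eil1 (AT2G27050; SALK_042113), the T-DNA insertion line eil3 (AT1G73730; SALK_089129) and the cross of both lines, eil3 eil1. Each mutant is thus represented by a single insertion allele. EIL3, also called SLIM1, and EIL1 belong to the EIN3 family of transcription factors; EIL3 is known from the sulfur limitation response and EIL1 from ethylene signalling. All seedlings spent 18 days on agarose plates of a modified Long Ashton medium at 22 °C, with 16 h of light at 100 µmol photons per square metre and second and 8 h of darkness. Full supply (+S) was 0.75 mM MgSO4, and low supply (-S) was 0.015 mM MgSO4 with 0.75 mM MgCl2 added, so that less sulfate and more chloride cannot be told apart here.

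Glucosinolates are sulfur-rich defence compounds of the cabbage family, and the aliphatic ones are made from methionine under the control of MYB28, MYB29 and MYB76. SDI1 and SDI2 are tetratricopeptide repeat proteins; SDI1 is known to bind MYB28 and to repress aliphatic glucosinolate genes when sulfur is short. Both genes belong to the OAS cluster, a small set of genes whose transcripts rise with the cysteine precursor O-acetylserine, together with LSU1, LSU2, APR3, SHM7 and GGCT2;1.

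In the RefSeq annotation of TAIR10.1, SDI1 lies on the minus strand at chr5:19805437-19807853, with 4 exons and a protein of 306 residues. SDI2 lies on the minus strand at chr1:1336274-1337849, also with 4 exons, and encodes 303 residues. None of the 2387 stretches of 31 bases in the SDI1 gene span, and none of the 1546 in that of SDI2, occurred elsewhere in the genome or in the other gene, so reads of this length are not shared between them. The last 431 bases of SDI2 overlap the plus-strand gene AT1G04760, and no source used here states whether counting used strand. That neighbour stayed between 0.807 and 4.67 CPM in every library and fell, from 1.93 to 0.942 CPM, in Col-0 shoots at -S, where SDI2 rose; it also fell in eil3 eil1 shoots and was not called in the other 6 comparisons.

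The 250 bases before each annotated gene start are shown, from the same build and on the coding strand, because the members respond together to sulfate but differently to the mutations. Motifs of 3 kinds were searched on both strands: the core of the sulfur-responsive element SURE (GAGAC), the UPE-box (AGATACATT, AGATTCATT, AGGTACATT or AGGTTCATT), and the core of EIN3-type sites (ATGTAC or ATGTAT). Capitals mark the only match, a SURE core on the opposite strand (read GTCTC) at 23 to 19 bases before the SDI1 start.
SDI1 (chr5:19807854-19808103, minus strand): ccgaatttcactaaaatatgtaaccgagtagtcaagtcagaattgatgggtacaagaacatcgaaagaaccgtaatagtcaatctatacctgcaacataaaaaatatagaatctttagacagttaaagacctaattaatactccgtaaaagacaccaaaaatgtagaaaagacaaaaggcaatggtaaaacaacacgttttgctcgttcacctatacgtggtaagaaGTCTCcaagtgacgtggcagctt
SDI2 (chr1:1337850-1338099, minus strand): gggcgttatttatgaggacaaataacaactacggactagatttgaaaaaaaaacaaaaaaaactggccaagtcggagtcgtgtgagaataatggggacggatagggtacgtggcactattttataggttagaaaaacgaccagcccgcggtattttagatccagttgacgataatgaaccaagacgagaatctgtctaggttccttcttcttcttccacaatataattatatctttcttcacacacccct
Among 27443 promoter windows of this length, 25.8% held a SURE core, 1.29% a UPE-box and 30.2% an EIN3-type core. A match describes letters only, and a missing match says nothing about binding outside this window.

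The sum of estimated counts per library ran from 27029056 to 37809176 in shoots and from 26615731 to 38269932 in roots. Levels are given in CPM, the usual unit of counts relative to the library total, scaled by TMM within an organ, as mean ± SD of 3 libraries; a change is a log2 fold change with its SE; and a gene is said to rise, fall or differ where the edgeR quasi-likelihood test, adjusted by Benjamini-Hochberg over all loci of the fit, gave p under 0.05. The replicates are numbered as the deposited columns. Organ markers followed the labels: 19 green tissue genes summed to 36560 to 151100 CPM in shoots and to 826 to 3691 CPM in roots, 7 root genes summed to 7697 to 11240 CPM in roots and to 399 to 715 CPM in shoots, and no marker was at 0 in any group. The targeted genes followed them less well. EIL1 transcript at +S was 102 ± 3.57 CPM in Col-0 shoots, 83.98 ± 5.06 in those labelled eil1 (not called) and 45.55 ± 2.78 in those labelled eil3 eil1. In roots at +S it was 51.4 ± 1.46 CPM in Col-0, 51.4 ± 2.25 in eil1 and 15.8 ± 2.52 in eil3 eil1. In roots at -S it was 55.9 ± 4.28 CPM in Col-0, 43.0 ± 5.72 in eil1 and 19.5 ± 2.15 in eil3 eil1. EIL3 transcript at +S was 17.0 ± 0.954 CPM in Col-0 shoots and 17.2 ± 2.81 in those labelled eil3, but 23.5 ± 1.08 in Col-0 roots and 15.8 ± 2.08 in eil3 roots. In libraries labelled eil3 eil1, EIL3 in roots was 21.65 ± 1.85 CPM at +S (not called). Their shoots had more EIL3 transcript than Col-0 shoots, with 29.8 ± 1.38 CPM at +S and 29.97 ± 2.86 against 21.9 ± 1.41 CPM at -S (edgeR adjusted p = 0.00011 and 0.00131). Mean levels in lines labelled with the same insertion were thus apart, and no test between these lines is given here. In roots at +S, EIL1 stood at 51.4 CPM in eil1 and 15.8 in eil3 eil1. EIL3 stood at 15.8 CPM in eil3 roots and 21.65 in eil3 eil1 roots. A T-DNA can leave transcript, but whether it did here was not tested. These values do not decide the genotype, and genotype names below are those of the labels.

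Low sulfate raised SDI1 from a level near 1 CPM to one of the largest rises measured. In Col-0 shoots the +S libraries held 0.830, 1.27 and 1.16 CPM (29 to 40 estimated counts each) and the -S libraries 859, 774 and 1162 CPM. The lowest -S library stood 609-fold above the highest +S library. The change of 9.75 ± 0.25 on the log2 scale had the smallest p of all 21697 loci tested and was the second largest rise, in a comparison where 16.9% of loci rose (edgeR adjusted p = 2.43e-16).

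The same gene rose in the shoots of every mutant line. In eil1 shoots it went from 1.73, 1.79 and 1.50 CPM to 475, 543 and 824 CPM, with replicate 3 well above the other two at -S. In eil3 shoots it went from 4.89, 4.29 and 4.86 CPM to 530, 476 and 601 CPM. In eil3 eil1 shoots it went from 7.29, 8.68 and 8.10 CPM to 320, 296 and 345 CPM. No +S library overlapped a -S library. The log2 rises were 8.52 ± 0.24, 6.84 ± 0.21 and 5.32 ± 0.20, that is 366-fold, 114-fold and 39.95-fold, against shares of 14.4%, 18.1% and 32.5% of loci that rose in those comparisons.

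SDI1 rose in the roots of all 4 genotypes as well. Col-0 roots held 14.3, 10.1 and 11.0 CPM at +S and 953, 1213 and 1254 CPM at -S. Roots of eil1 held 13.5, 18.2 and 11.9 CPM at +S and 305, 442 and 503 CPM at -S. Again the groups stood far apart, by at least 16.7-fold between single libraries in these 2 genotypes.
Roots of eil3 went from 22.4, 27.4 and 19.6 CPM to 349, 286 and 340 CPM. Those of eil3 eil1 went from 29.9, 37.2 and 28.3 CPM to 136, 179 and 163 CPM, the smallest gap of any SDI1 group, yet with its lowest -S library 3.66-fold above its highest +S library. The log2 rises were 6.59 ± 0.23 in Col-0, 4.84 ± 0.21 in eil1, 3.81 ± 0.20 in eil3 and 2.33 ± 0.19 in eil3 eil1, where 4.26%, 1.09% and 0.469% of the 21954 loci rose in the first 3 and 483 loci rose in the last (3.89% changed in either direction there).

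SDI2 rose in all 8 comparisons too, by less than SDI1 and against the same shares of loci that rose. In Col-0 shoots it went from 10.7, 9.09 and 9.85 CPM to 122, 115 and 133 CPM. In eil1 shoots it went from 7.92, 8.90 and 6.95 CPM to 90.9, 87.4 and 123 CPM, replicate 3 again being the highest. Shoots of eil3 rose from 12.4, 11.2 and 11.1 CPM to 168, 175 and 176 CPM. These eil3 libraries held the highest SDI2 levels of any shoots.
In eil3 eil1 shoots SDI2 went from 14.1, 15.1 and 16.7 CPM to 160, 139 and 163 CPM. The log2 rises in shoots were 3.64 ± 0.12 in Col-0, 3.66 ± 0.13 in eil1, 3.90 ± 0.12 in eil3 and 3.34 ± 0.12 in eil3 eil1, which is 10.1-fold to 14.98-fold.

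Roots showed the smaller SDI2 response. Col-0 roots held 37.4, 37.8 and 36.8 CPM at +S and 146, 153 and 171 CPM at -S. The eil1 roots held 42.1, 45.1 and 40.4 CPM against 118, 122 and 126 CPM. In eil3 roots the values were 31.0, 36.9 and 33.2 CPM against 126, 116 and 137 CPM. All -S libraries lay above all +S libraries of the same genotype.
In eil3 eil1 roots the values were 34.8, 42.4 and 36.6 CPM against 106, 126 and 118 CPM. The log2 rises were 2.07 ± 0.09, 1.52 ± 0.08, 1.90 ± 0.09 and 1.62 ± 0.08 in the order Col-0, eil1, eil3 and eil3 eil1, or 2.87-fold to 4.20-fold. Small as they were beside those of SDI1, the SDI2 rises had the smallest p of all loci tested in eil3 roots, in eil3 eil1 roots and in eil3 eil1 shoots.

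**Figure D1:**
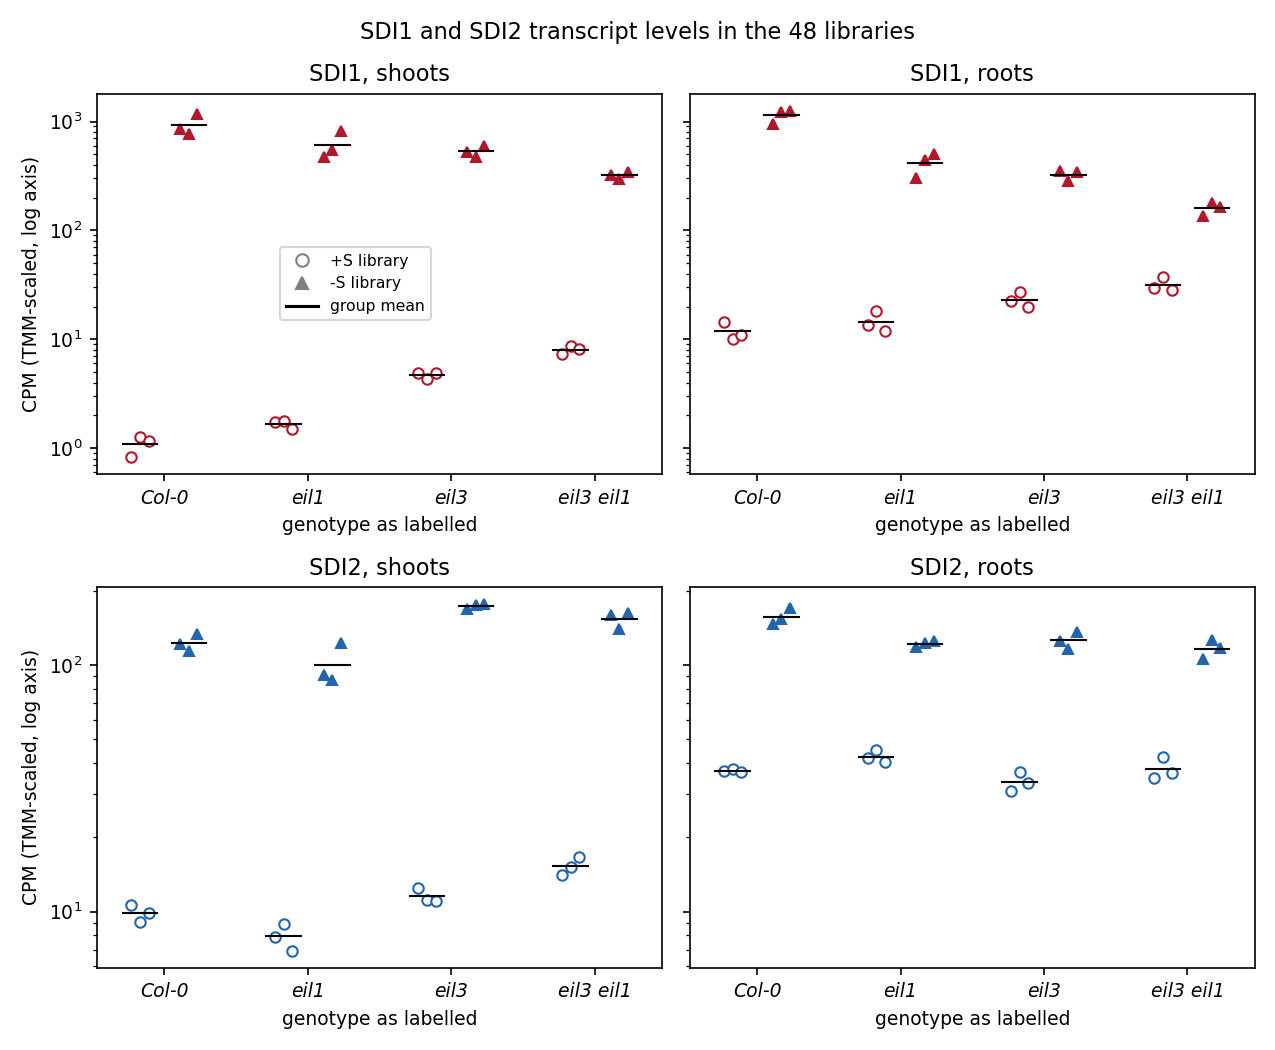
Level of SDI1 (red, top) and SDI2 (blue, bottom) in each of the 48 libraries, in CPM scaled by TMM within an organ on a log axis, by genotype as labelled; open circles are +S, filled triangles -S, and black lines the means of 3 libraries. For SDI1 the +S means climb from 1.09 to 8.02 CPM in shoots and from 11.8 to 31.8 in roots while the -S means descend; for SDI2 the -S triangles stay between 87.4 and 176 CPM in all 8 groups.

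Within a group the same library tended to be highest in both genes: it was so in 12 of 16 groups. The coefficient of variation of 3 libraries was 7.29 to 30.1% for SDI1 and 1.40 to 19.8% for SDI2, with the largest value of each in eil1 shoots at -S. Low sulfate also lowered green tissue markers in shoots. The median fall on the log2 scale was 0.75 in Col-0, 0.43 in eil1, 1.11 in eil3 and 1.77 in eil3 eil1. In that order 19, 13, 19 and 19 of 19 markers were called lower, where 17.9%, 12.9%, 16.6% and 28.3% of loci fell. In eil1 roots 6 of 19 were called lower (median -0.77), where 0.834% of loci fell, and in the roots of the other genotypes none. The sum of the 19 ran from 1039 to 3691 CPM over the eil1 root libraries at +S and from 978 to 1265 CPM at -S. In Col-0 roots at +S it ran from 1457 to 1814 CPM. Whether a single +S library carried the fall in eil1 roots was not tested. Of the 7 root markers, 5 fell in eil3 eil1 shoots (median -1.90), where 28.3% of loci fell. In eil3 shoots 1 root marker rose, where 18.1% of loci rose, and none was called elsewhere. The part of these shifts in the SDI1 and SDI2 values was not tested. In whole organs, fewer cells of a type and less RNA per cell cannot be told apart.

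The next comparison asks whether the size of the response differed between the labelled lines, by testing the difference between responses of 2 genotypes. For SDI1 it did in most pairs. In shoots the rise was smaller than in Col-0 by 2.91 ± 0.30 in eil3 and by 4.43 ± 0.29 in eil3 eil1 (edgeR adjusted p = 1.37e-05 and 3.68e-09), where 1.03% and 16.9% of loci had a negative difference, from a smaller rise or a larger fall. The eil1 difference of -1.24 ± 0.34 was not called by edgeR (adjusted p = 0.206; 0.0184% of loci called lower), whereas DESeq2 called it (-1.255, adjusted p = 0.0160). The double mutant responded less than eil3 by 1.52 ± 0.25 and less than eil1 by 3.20 ± 0.28 (edgeR adjusted p = 0.000185 and 5.79e-08), against 11.2% and 18.6% of loci. The eil3 line responded less than eil1 by 1.68 ± 0.29 (edgeR adjusted p = 0.00523; 0.539% of loci).

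Roots gave nearly the same order of SDI1 responses, with eil1 now set apart from Col-0. The rise was smaller than in Col-0 by 1.75 ± 0.27 in eil1, 2.78 ± 0.27 in eil3 and 4.26 ± 0.27 in eil3 eil1 (edgeR adjusted p = 0.00257, 1.11e-06 and 8.28e-10), where 0.210%, 0.506% and 1.52% of loci had a negative difference. The double mutant was below eil3 by 1.48 ± 0.26 and below eil1 by 2.51 ± 0.26 (edgeR adjusted p = 0.0121 and 9.67e-06; 0.118% and 0.861% of loci). The 2 single mutants did not differ from each other beyond the test's threshold (-1.03 ± 0.26, edgeR adjusted p = 0.300, 95% interval -1.54 to -0.52 before adjustment), although leaving out eil1 -S replicate 1 brought this to -1.21 with an adjusted p of 0.0458.

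SDI2 responses differed far less between genotypes. In shoots no mutant was called different from Col-0: the differences were 0.02 ± 0.17 in eil1, 0.26 ± 0.16 in eil3 and -0.31 ± 0.16 in eil3 eil1, with 95% intervals of -0.30 to 0.35, -0.06 to 0.58 and -0.62 to 0.01. Only eil3 eil1 against eil3 passed the test, at -0.57 ± 0.16 (edgeR adjusted p = 0.0124), in a pair where 11.2% of loci did so. In roots, where 0.210% and 1.52% of loci had a negative difference from Col-0 in eil1 and in eil3 eil1, the SDI2 rise was smaller there too. It was smaller by 0.55 ± 0.12 in eil1 and by 0.45 ± 0.12 in eil3 eil1 (edgeR adjusted p = 0.0349 and 0.0329). Both calls were near the threshold: the first was lost without any 1 of 10 of its 12 libraries and the second without any 1 of 8. The eil3 difference in roots was -0.17 ± 0.12 (edgeR adjusted p = 0.692).

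**Figure D2:**
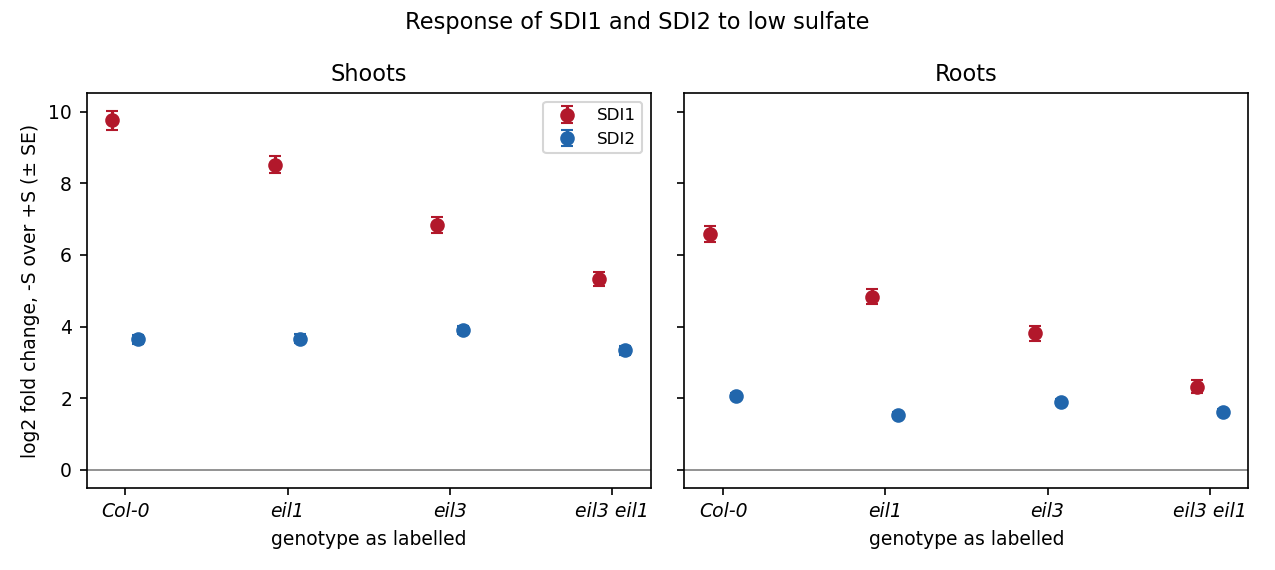
Response to low sulfate as log2 fold change of -S over +S, with bars of ± SE, for SDI1 (red) and SDI2 (blue) in shoots and roots of the 4 genotypes as labelled. SDI1 steps down from 9.75 to 5.32 in shoots and from 6.59 to 2.33 in roots, while SDI2 stays between 3.34 and 3.90 in shoots and between 1.52 and 2.07 in roots.

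The smaller SDI1 response of the mutants had parts at both ends. At +S, SDI1 was higher than in Col-0 by 2.11 ± 0.26 in eil3 shoots and 2.89 ± 0.24 in eil3 eil1 shoots (edgeR adjusted p = 0.000102 and 3.30e-07; 2.47% and 2.84% of loci were higher). The eil1 shoots differed by 0.63 ± 0.30, which did not pass (edgeR adjusted p = 0.324). In roots the +S level was higher by 0.97 ± 0.20 in eil3 and 1.42 ± 0.20 in eil3 eil1 (edgeR adjusted p = 0.0116 and 0.000391; 0.861% and 0.446% of loci), and the eil1 difference was 0.30 ± 0.20 (edgeR adjusted p = 0.565). The eil3 root call was lost without replicate 2 of either Col-0 or eil3 (adjusted p = 0.0677 and 0.0531). In order of +S level the shoots ran Col-0, eil1, eil3, eil3 eil1; neither Col-0 and eil1 nor eil3 and eil3 eil1 were told apart by edgeR (0.78 ± 0.20 for the latter pair, adjusted p = 0.333), while eil3 exceeded eil1 by 1.48 ± 0.24 (adjusted p = 0.00402; 0.235% of loci).

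At -S the order was turned round. SDI1 was lower than in Col-0 by 0.80 ± 0.16 in eil3 shoots and 1.54 ± 0.16 in eil3 eil1 shoots (edgeR adjusted p = 0.00190 and 1.10e-07; 8.69% and 26.1% of loci were lower). In eil1 shoots it was -0.60 ± 0.16, not called by edgeR (adjusted p = 0.0888) but called by DESeq2 (-0.62, adjusted p = 0.0187), and called by edgeR at -0.87 without eil1 replicate 3, the high library (adjusted p = 0.00536). In roots SDI1 was lower by 1.45 ± 0.18 in eil1, 1.81 ± 0.18 in eil3 and 2.84 ± 0.19 in eil3 eil1 (edgeR adjusted p = 6.83e-05, 4.67e-07 and 3.23e-10; 1.18%, 3.37% and 6.01% of loci). The eil1 and eil3 levels at -S were not told apart in either organ (edgeR adjusted p = 0.491 in shoots and 0.502 in roots). The eil3 eil1 level was below both single mutants in both organs, by 0.74 ± 0.16 to 1.39 ± 0.18 (edgeR adjusted p = 0.00238 or less; 17.0% and 26.7% of loci were lower than in eil3 and eil1 in shoots, 0.647% and 3.40% in roots). In shoots the larger part of the response difference between eil3 eil1 and Col-0 thus lay at +S (2.89 against 1.54), and in roots at -S (1.42 against 2.84).

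SDI2 levels did not follow this order. In shoots at +S SDI2 was higher than in Col-0 in eil3 eil1 alone (0.63 ± 0.12, edgeR adjusted p = 0.00306), where 2.84% of loci were higher. In shoots at -S it was higher in eil3 by 0.49 ± 0.11 and in eil3 eil1 by 0.32 ± 0.11 (edgeR adjusted p = 0.00361 and 0.0155; 8.85% and 27.4% of loci were higher), where SDI1 of the same libraries was lower. The eil3 eil1 call was lost without Col-0 replicate 2 or eil3 eil1 replicate 1 or 3 (adjusted p up to 0.0674). In roots no genotype pair was called at +S. At -S all 3 mutant lines lay below Col-0, where 1.18%, 3.37% and 6.01% of loci were lower in eil1, eil3 and eil3 eil1. SDI2 was lower by 0.36 ± 0.08, 0.31 ± 0.08 and 0.43 ± 0.08 in that order (edgeR adjusted p = 0.0175, 0.0196 and 0.000976). The first 2 of these calls were each lost in 3 of the 6 fits that left out a library (adjusted p up to 0.123 and 0.136), and the second also in a fit without the other groups (adjusted p = 0.0714).

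**Figure D3:**
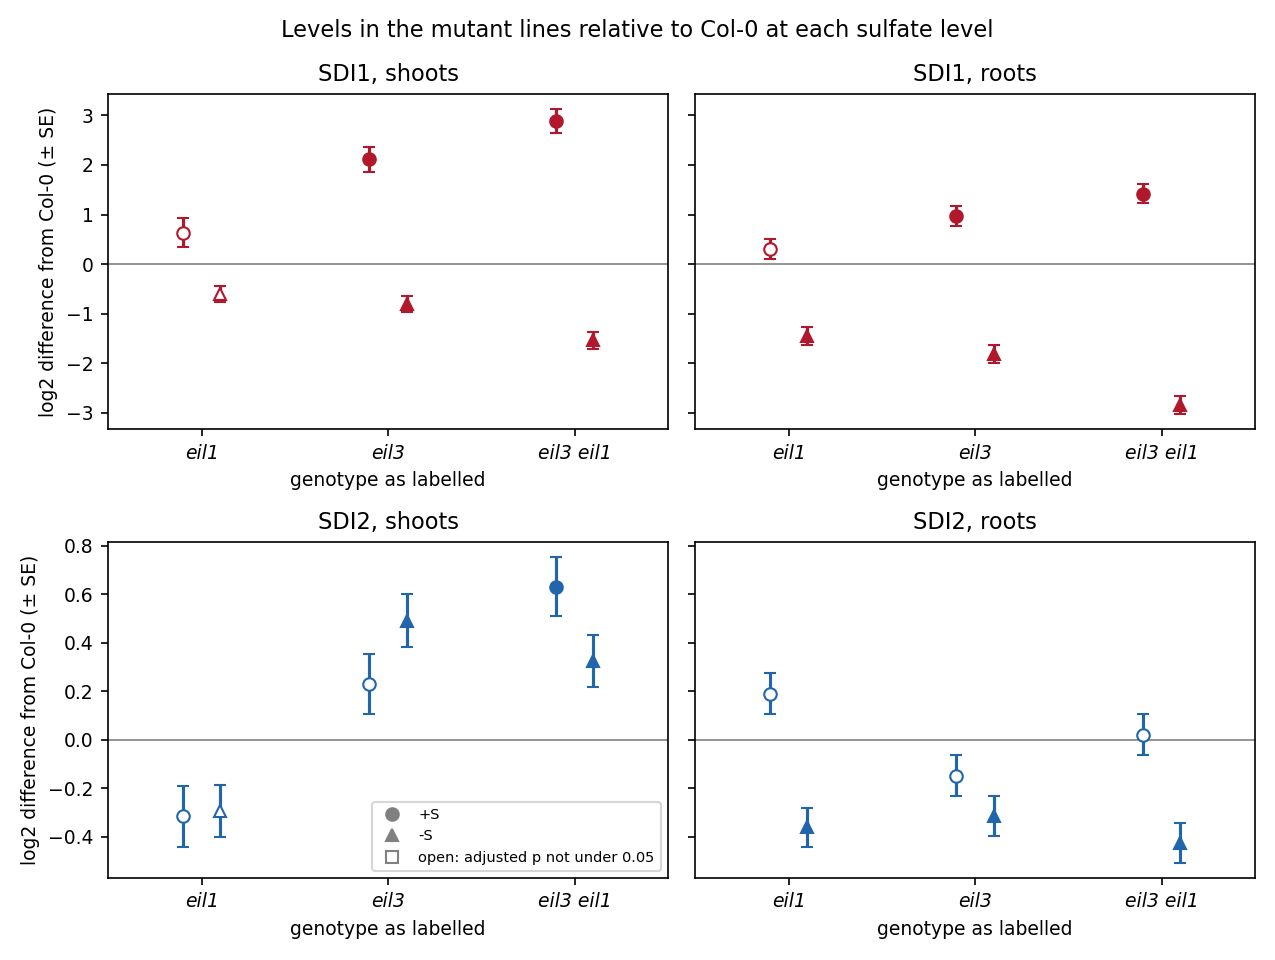
Difference of each mutant line from Col-0 on the log2 scale, with bars of ± SE, at +S (circles) and -S (triangles), for SDI1 (top) and SDI2 (bottom) in shoots and roots; open symbols did not pass the edgeR test. SDI1 circles lie above 0 and triangles below it in both organs, furthest apart in eil3 eil1 (2.89 and -1.54 in shoots, 1.42 and -2.84 in roots); SDI2 differences stay between -0.43 and 0.63.

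Shoots and roots were compared within a genotype, in fits of 12 libraries. At +S both genes were higher in roots in all 4 genotypes. The root excess of SDI1 was 3.01 ± 0.24 in Col-0, 2.67 ± 0.29 in eil1, 1.86 ± 0.15 in eil3 and 1.65 ± 0.13 in eil3 eil1, where 40.5%, 41.6%, 40.5% and 47.4% of loci were higher in roots. That of SDI2 was 1.47 ± 0.08, 1.97 ± 0.13, 1.096 ± 0.09 and 0.98 ± 0.10 in the same order. All 8 had edgeR adjusted p of 2.87e-06 or less.
At -S the organs were not told apart in Col-0, with root differences of -0.16 ± 0.17 for SDI1 and -0.10 ± 0.08 for SDI2 (edgeR adjusted p = 0.403 and 0.230). The second of these turned to 0.34 (adjusted p = 0.00260) with scaling by total counts, which moved the median of all loci to 0.45. In the mutants SDI1 was lower in roots, by 1.01 ± 0.22 in eil1, 1.15 ± 0.12 in eil3 and 1.33 ± 0.11 in eil3 eil1 (edgeR adjusted p = 0.00104, 1.76e-06 and 1.02e-07; 38.7%, 35.8% and 39.7% of loci were lower). SDI2 was lower in roots of eil3 and eil3 eil1, by 0.89 ± 0.08 and 0.72 ± 0.09 (edgeR adjusted p = 4.75e-07 and 6.74e-06), and in eil1 the difference was -0.17 ± 0.11 (adjusted p = 0.185).
The root response was therefore smaller than the shoot response for both genes in every genotype. For SDI1 the gap was 3.16 ± 0.30 in Col-0, 3.67 ± 0.37 in eil1, 3.02 ± 0.19 in eil3 and 2.98 ± 0.17 in eil3 eil1 (7.25%, 6.85%, 6.06% and 25.0% of loci had a negative root minus shoot difference). For SDI2 it was 1.57 ± 0.11, 2.14 ± 0.17, 1.99 ± 0.12 and 1.70 ± 0.14. The largest edgeR adjusted p among these 8 was 0.000278.

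Levels of the 2 genes were set side by side only per length, as TPM computed from the counts and the deposited effective lengths. At +S SDI2 was the more abundant transcript in all 24 libraries, and at -S SDI1 was, except in eil3 eil1 roots. The ratio of SDI1 to SDI2 TPM went from 0.0664 (0.0463 to 0.0830 over libraries) to 4.45 (4.01 to 5.17) in Col-0 shoots. It went from 0.126 to 3.58 in eil1 shoots, from 0.241 to 1.83 in eil3 shoots and from 0.312 to 1.23 in eil3 eil1 shoots. In the order of genotypes the +S ratio climbed and the -S ratio came down.
In roots the ratio went from 0.188 to 4.31 in Col-0, from 0.202 to 2.02 in eil1, from 0.407 to 1.53 in eil3 and from 0.496 to 0.807 (0.761 to 0.839) in eil3 eil1. The mean log2 ratio at -S exceeded that at +S by 3.87 in shoots and 2.61 in roots; an exact two-sided permutation test within genotypes gave p = 1.25e-05 in each organ, the smallest its 160000 relabellings allow. The length matters for the level of the ratio: the SDI1 target of 2323 bases is 1109 bases longer than the annotated spliced transcript, and that of SDI2 (1479 bases) 195 bases longer. With spliced lengths, chosen after seeing the data, the ratio in eil3 eil1 roots at -S became 1.46, so that no order of the genes can be given there, while all +S ratios stayed below 1 (0.940 at most).

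**Figure D4:**
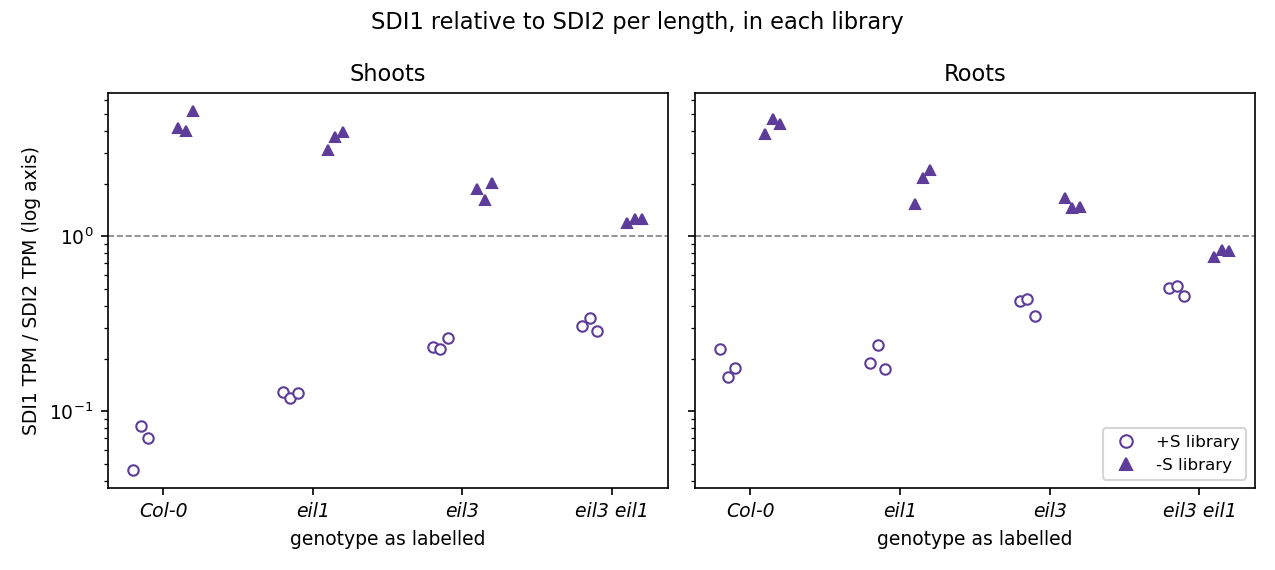
Ratio of SDI1 TPM to SDI2 TPM in each library on a log axis, by genotype as labelled, in shoots and roots; open circles are +S, triangles -S, and the dashed line marks equal levels. All circles lie under the line (0.0463 to 0.520), and the triangles above it except the 3 of eil3 eil1 roots (0.761 to 0.839).

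Which genes moved most like each member was asked over the means of all 16 groups, by the root mean square (RMS) difference between centred log2 CPM profiles among 18467 loci; this is a description, and the 16 groups share genotypes and organs. The 5 profiles nearest to SDI1 were LSU1 (RMS 0.86), LSU3 (AT3G49570; 1.40), LSU2 (1.50), GGCT2;1 (AT5G26220; 1.59) and SHM7 (1.75). LSU genes are known from the sulfur deficiency response, GGCT2;1 breaks down glutathione, and SHM7 is a serine hydroxymethyltransferase. SDI2 came 11th (1.85), against a median of 3.26 over all loci. LSU1 and LSU2 are close copies whose reads may be shared.
The 5 nearest to SDI2 were APR3 (RMS 0.26), APR1 (0.47), LSU2 (0.57), DHAR2 (0.61) and GSTU24 (0.64), with a median of 1.53 over all loci. APR1 and APR3 reduce activated sulfate, DHAR2 recycles ascorbate with glutathione, and GSTU24 is a glutathione transferase. SDI1 came 14235th by this measure, which counts the size of the swings as well as their shape.

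The other OAS cluster genes were set beside SDI1 and SDI2. All 5 rose in every genotype and organ. In shoots 16.9%, 14.4%, 18.1% and 32.5% of all loci rose in the order Col-0, eil1, eil3 and eil3 eil1. In roots 4.26%, 1.09% and 0.469% rose in Col-0, eil1 and eil3, and 483 of 21954 loci rose in eil3 eil1. The median log2 rise of the 5 was 5.30 in Col-0, 4.90 in eil1, 3.64 in eil3 and 2.89 in eil3 eil1 shoots. In roots it was 3.27, 2.38, 2.09 and 1.71 in that order. The medians of all loci lay between 0.00 and 0.02. LSU1 rose from 1.50 ± 0.863 to 492 ± 102 CPM in Col-0 shoots and from 17.6 ± 0.994 to 176.5 ± 16.3 CPM in eil3 eil1 shoots. GGCT2;1 rose from 2.44 ± 0.431 to 418 ± 114 CPM in the former and from 55.0 ± 8.89 to 140.2 ± 14.4 CPM in the latter.
At +S, 4 of the 5 were higher than in Col-0 in eil3 shoots and 4 in eil3 eil1 shoots, with medians of 1.50 and 2.36 beside the 2.11 and 2.89 of SDI1 (2.47% and 2.84% of loci were higher); SHM7 was the one not called. In roots at +S this was so for LSU1 in eil3 alone (0.861% of loci). At -S, LSU1, GGCT2;1 and SHM7 were lower than in Col-0 in eil3 and in eil3 eil1 shoots, that is 3 of 5 in each, where 8.69% and 26.1% of loci were lower. In roots at -S, 4 were lower in eil1 (all but APR3), 5 in eil3 and 5 in eil3 eil1, with medians of -0.90, -1.69 and -2.41 (1.18%, 3.37% and 6.01% of loci). APR3, nearest to SDI2, was not called different from Col-0 in eil3 or eil3 eil1 shoots at -S (0.30 ± 0.16 and 0.05 ± 0.16), where SDI2 was higher.

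The known targets of SDI1 repression, the genes of aliphatic glucosinolate synthesis, mostly moved the other way. Of 23 tested (24 listed), 19 fell in Col-0 shoots at -S, with a median of -2.30 against 0.00 over all loci, and 3 rose; 17.9% of all loci fell there. In the shoots of eil1, eil3 and eil3 eil1, 19, 20 and 19 fell and 2, 2 and 4 rose, with medians of -2.42, -1.85 and -1.19 (12.9%, 16.6% and 28.3% of loci fell). In roots 21, 20, 20 and 14 fell in the order Col-0, eil1, eil3 and eil3 eil1, with medians of -1.68, -1.23, -1.27 and -0.46 (4.77%, 0.834%, 0.592% and 1.69% of loci fell), and 1, FMO-GSOX5, rose in Col-0.
BCAT4, which starts methionine chain elongation, fell from 131 ± 36.1 to 4.42 ± 2.72 CPM in Col-0 shoots and from 149 ± 20.2 to 44.1 ± 11.45 CPM in eil3 eil1 shoots. In Col-0 roots it fell from 344 ± 27.1 to 16.65 ± 1.92 CPM and in eil3 eil1 roots from 394 ± 45.5 to 220.0 ± 18.3 CPM. MAM1, the chain-elongating synthase, fell from 162 ± 9.19 to 10.03 ± 1.80 CPM in Col-0 roots and from 179 ± 13.4 to 116 ± 1.84 CPM in eil3 eil1 roots.
CYP83A1, which oxidises the aldoximes of the pathway, fell from 148 ± 35.2 to 27.1 ± 8.36 CPM in Col-0 shoots and from 266 ± 13.6 to 56.95 ± 5.39 CPM in Col-0 roots. CYP79F1, which makes those aldoximes, fell from 64.1 ± 16.9 to 2.33 ± 1.53 CPM in Col-0 shoots and was under 1.5 CPM in all root libraries. Its reads and those of its near-copy CYP79F2 may not always be separable, nor those of MAM1 and MAM3, which was not checked here. FMO-GSOX4, a side chain oxygenase, went against the list and rose in Col-0 shoots from 7.93 ± 2.24 to 48.3 ± 13.97 CPM; the other risers there were its relatives FMO-GSOX5 and FMO-GSOX2, named after their values were seen. GSTU20, a glutathione transferase of the list, fell from 70.5 ± 3.54 to 21.9 ± 2.43 CPM in Col-0 roots (-1.68 ± 0.08).

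More of these genes were called different between the mutant lines and Col-0 at -S than at +S, except in eil1 shoots, where none was at either level. Such counts do not test whether a difference changed with sulfate, which the response differences given below do. In eil3 shoots the share of all loci called also went from 7.13% at +S to 17.5% at -S. At +S, 2 were higher in eil3 shoots (CYP79F2 and BCAT3) and 1 in eil3 eil1 shoots (CYP79F2), where 2.47% and 2.84% of loci were higher, and FMO-GSOX2 was lower in the roots of each (1.33% and 0.433% of loci were lower there). At -S in roots, 15 were higher than in Col-0 in eil1, 16 in eil3 and 20 in eil3 eil1, with medians of 0.51, 0.62 and 1.40; 1.33%, 3.28% and 6.07% of all loci were higher. These are the groups in which SDI1 was lower than in Col-0 by 1.45, 1.81 and 2.84. At -S in shoots, 0, 5 and 18 were higher (0.180%, 8.85% and 27.4% of loci) and 0, 2 and 2 lower (FMO-GSOX2 in both, with SOT17 in eil3 and FMO-GSOX5 in eil3 eil1), with medians of -0.16, 0.25 and 1.22, beside SDI1 differences of -0.60 (not called), -0.80 and -1.54. The difference of the response from Col-0 was positive for 15 genes in eil3 eil1 shoots and 18 in eil3 eil1 roots, and negative for 1, FMO-GSOX2, in the shoots. Among all loci it was positive for 4336 of 21697 and 506 of 21954 (36.9% and 3.83% in either direction). In eil1 and eil3 shoots it was called for 0 of 23 (medians of -0.25 and -0.01), where 0.0230% and 1.78% of loci were called. The SDI1 response was smaller by 2.91 in eil3 shoots. In eil1 and eil3 roots it was positive for 3 and 5 of the listed genes and negative for 0, where 0.173% and 0.437% of loci were positive. A positive difference need not be a smaller fall: IIL1 of the list went from 251.0 to 172 CPM in Col-0 shoots and from 241 to 317 CPM in eil3 eil1 shoots. Green tissue markers were lower than in Col-0 at -S for 14 of 19 in eil3 shoots and 19 of 19 in eil3 eil1 shoots (medians of -0.40 and -1.20), and for none in roots. Of all loci, 8.69% and 26.1% were lower in these shoots. The part of the green tissue markers in the shoot values was not tested. The SDI1 and the glucosinolate values come from the same libraries, and whether one depends on the other was not tested.

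**Figure D5:**
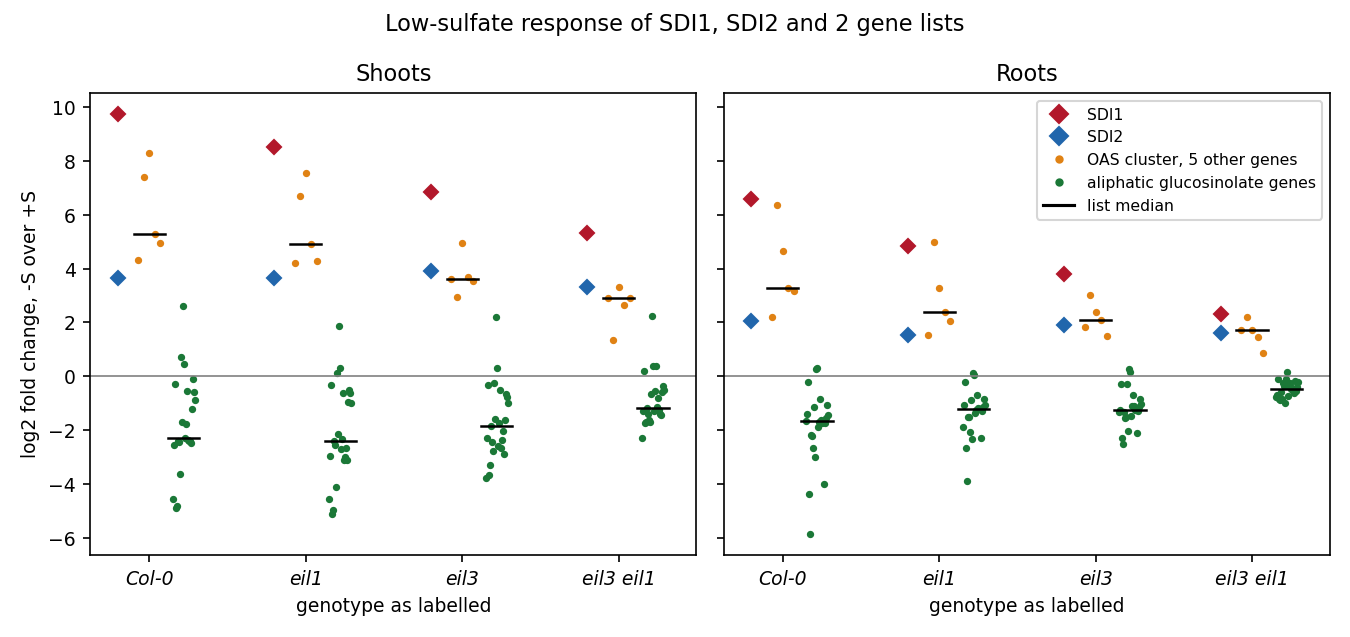
Response to low sulfate as log2 fold change of -S over +S for SDI1 and SDI2 (diamonds), the 5 other OAS cluster genes (orange) and the 23 tested aliphatic glucosinolate genes (green) in each genotype as labelled; black lines are list medians. The orange medians come down from 5.30 to 2.89 in shoots and from 3.27 to 1.71 in roots, and the green medians move from -2.30 to -1.19 and from -1.68 to -0.46; the lowest green point in Col-0 roots is CYP79F1, which was near 0 CPM there.

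MYB28, the partner that SDI1 is known to bind, was not called lower in Col-0: it stood at 30.65 ± 6.37 CPM at +S and 28.8 ± 3.88 at -S in shoots (edgeR adjusted p = 0.700), and in roots it rose from 76.3 ± 2.97 to 107.5 ± 7.54 CPM (0.49 ± 0.10, edgeR adjusted p = 0.00307). In eil3 and eil3 eil1 it fell instead, from 79.8 ± 2.22 to 55.6 ± 12.5 CPM and from 78.3 ± 4.92 to 50.6 ± 3.14 CPM in roots, and by 0.47 ± 0.15 and 0.56 ± 0.15 on the log2 scale in shoots. The difference between root responses was -1.01 ± 0.15 in eil3 and -1.12 ± 0.15 in eil3 eil1 roots (edgeR adjusted p = 0.000314 and 4.29e-05). MYB29 fell in the shoots of all 4 genotypes, from 16.2 ± 5.33 to 2.27 ± 0.615 CPM in Col-0 and from 22.5 ± 1.68 to 8.09 ± 2.46 CPM in eil3 eil1. MYB76 was at 0.799 ± 0.316 CPM in Col-0 shoots at +S and at most at 0.0323 CPM in each of them at -S. Neither MYB29 nor MYB76 passed the filter in roots, where each stayed under 0.06 CPM in every library.
Of the 9 MYB and MYC regulators listed, 2 rose and 2 fell in Col-0 shoots, where 16.9% and 17.9% of all loci did; of the 7 tested in roots 1 rose and 1 fell (4.26% and 4.77% of loci). The other called genes were MYC3 (0.61 ± 0.06) and MYC2 (0.62 ± 0.18) in shoots, and MYB34, a regulator of indolic glucosinolates, in roots (-0.94 ± 0.07).

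Of the 3 listed relatives of the SDI proteins, AT3G51280 alone passed the filter. It fell in shoots at -S in all 4 genotypes, from 8.60 ± 0.301 to 5.31 ± 0.358 CPM in Col-0, and was not called in roots (29.15 ± 1.16 against 30.65 ± 2.24 CPM in Col-0). The other relatives, MS5 (a gene of male meiosis) and AT5G44330, stayed under 0.31 CPM in every library. Of the EIN3 family, 4 members were listed (EIN3, EIL1, EIL2 and EIL3), and 3 of them were tested in shoots. EIL3 was the one called in Col-0 shoots at -S (0.37 ± 0.11, edgeR adjusted p = 0.0122), where 16.9% of loci rose. None of the 4 was called in Col-0 roots, where 9.03% of loci were.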

How the data were processed

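RNA of 48 shoot and root samples was sequenced from stranded mRNA libraries, per the labels. The authors deposited estimated counts per target; the submitters' processing notes name Trimmomatic 0.36, FastQC, kallisto 0.43.1 and TAIR10. Of these values 7.80% were not whole, and all were rounded. The 48 deposited TPM columns and 1 copy of the table were not used. Shoot columns could be tied to a group only. No source says how the 3 biological replicates were kept apart, so p-values measure the spread between libraries.

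Counts were scaled by TMM, filtered with filterByExpr and tested with edgeR 4.0.16 (quasi-likelihood, R 4.3.3), the 24 libraries of an organ in 1 fit and organs within a genotype, with Benjamini-Hochberg adjustment over all loci. SE is the log2 fold change over the root of F, an approximation. The fits were also run on simulated counts with few changed loci, which cannot show how they behave where many loci change, as in shoots. TPM was computed from rounded counts and deposited effective lengths, with a pseudocount of 0.1 TPM on the log scale. DESeq2 1.42.0, other scalings and filters, fewer or more groups in the fit, a replicate block and leaving out each library were alternatives.

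The members and gene lists were chosen with earlier results of these data known. Named were the members, EIL1, EIL3, MYB28, MYB29, MYB76, the OAS cluster, the 5 profiles nearest to each member, and up to 4 genes of each other list with the smallest p in Col-0. FMO-GSOX4, MYC2, MYC3 and MYB34 came in by that last part. The neighbour AT1G04760 was named because it overlaps SDI2, and CYP79F2, BCAT3, SOT17, FMO-GSOX2, FMO-GSOX5 and IIL1 after their values were seen.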

Additional observations from a re-analysis of the deposited data

Results flagged for a closer look

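Each result here is a difference between 2 effects that itself passed the edgeR quasi-likelihood test. For SDI1 in shoots the response differed from Col-0 by -2.913 in eil3 and -4.432 in eil3 eil1, the double mutant differed from eil3 by -1.518 and from eil1 by -3.196, and eil3 differed from eil1 by -1.678. For SDI1 in roots the difference from Col-0 was -1.748 in eil1, -2.778 in eil3 and -4.259 in eil3 eil1, and the double mutant differed from eil3 by -1.481 and from eil1 by -2.512. The SDI1 response of roots minus that of shoots was -3.165 in Col-0, -3.675 in eil1, -3.017 in eil3 and -2.98 in eil3 eil1.

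For SDI2 the response of eil3 eil1 shoots differed from that of eil3 shoots by -0.5692, and in roots the difference from Col-0 was -0.5502 in eil1 and -0.4464 in eil3 eil1. The SDI2 response of roots minus that of shoots was -1.573 in Col-0, -2.14 in eil1, -1.988 in eil3 and -1.698 in eil3 eil1. All values are on the log2 scale. Groups of 3 libraries are too small to test for a single outlying library.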

How the results depend on the processing

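The 112 results on SDI1 and SDI2 kept their direction and their side of the threshold with RLE size factors and without the count filter, as did the 24 that could be had with all 48 libraries in 1 fit and the 44 root results with a replicate block. The block changed no call. Same-numbered root libraries at +S and -S of a genotype deviated together weakly at most (12 pairs, r from -0.00451 to 0.143, 3 over 0.1). Same-numbered libraries of different genotypes were not compared. The numbers of the shoot columns do not follow those of the sample titles, and shoots were fitted without a block. The ratio of SDI1 to SDI2 kept its direction with a pseudocount of 1 TPM and with spliced lengths. With DESeq2, 4 shoot differences were called that edgeR did not call: SDI1 response, eil1 minus Col-0 (-1.255); SDI1 at +S, eil3 eil1 minus eil3 (0.7782); SDI2 at +S, eil3 minus eil1 (0.5434); and SDI1 at -S, eil1 minus Col-0 (-0.6177). In fits without the other groups, 2 root calls of SDI2 were lost, the response of eil3 eil1 minus Col-0 (-0.4390) and the -S level of eil3 minus Col-0 (-0.3063). With total-count scaling the SDI2 organ difference in Col-0 at -S turned from -0.10 to 0.3380, where the median of all loci moved to 0.45. The cause of the other changes was not tested.

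Leaving out 1 library at a time changed the call of 34 of 912 values. In roots, SDI1 at +S ranged from 0.9942 to 1.317 for eil3 eil1 minus eil1 and from 0.8300 to 1.138 for eil3 minus Col-0, and the SDI1 response of eil3 minus eil1 from -1.225 to -0.8732. SDI2 in roots at -S ranged from -0.4067 to -0.2925 for eil1 minus Col-0 and from -0.3762 to -0.2436 for eil3 minus Col-0; its response ranged from -0.5972 to -0.4831 for eil1 minus Col-0 and from -0.5053 to -0.3581 for eil3 eil1 minus Col-0. In shoots at -S, SDI1 in eil1 minus Col-0 ranged from -0.8715 to -0.4107, and SDI2 from -0.4681 to -0.2029 for eil1 minus Col-0 and from 0.2770 to 0.3924 for eil3 eil1 minus Col-0.

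Counts of calls over all loci, the background of the shares given, moved by over 1.5 times in 24 of 56 comparisons with DESeq2 (1.515 to 21.8 times), in 23 of 44 with only the groups compared (0.014 to 1.684 times), in 6 of 56 with total-count scaling (0.608 to 3.867 times), in 1 with RLE factors (2.0 times), in 1 without the filter (4.0 times), in 1 with all libraries (1.698 times) and in 1 with the block (1.808 times). Total-count scaling moved the split of higher and lower calls by over 10 points in 29 comparisons, for the shoot sulfate response from 3677 and 3893 to 5711 and 2453 loci in Col-0 and from 3917 and 3599 to 8837 and 1636 in eil3. At 29 to 40 counts per library, depth limits the SDI1 level in Col-0 shoots at +S.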
